A study of Mus musculus with 12 samples.

Results

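The genes described here encode the nuclear subunits of the respiratory chain and of ATP synthase. They were taken from the exon array table of newborn mouse brains by their symbols, as the probesets of the main type whose gene symbol begins with Ndufa, Ndufb, Ndufc, Ndufs, Ndufv, Uqcr, Cox4 to Cox8 or Atp5. These prefixes held 602 probesets. Of these, 20 lie in a 40 Mb stretch of chromosome 1 that also holds Uhmk1 and were left out, among them further places listed under Uqcrb and Cox7b. The remaining 582 probesets belong to 79 genes, out of 221417 main probesets and 17550 symbols in the table. By complex, 33 genes encode subunits of complex I, 8 of complex III, 15 of complex IV and 15 of ATP synthase. The other 8 genes are taken in by their prefix: Ndufaf1 to Ndufaf4 and Atp5sl, which encode assembly factors of complex I, Atp5s, a coupling factor of ATP synthase, Cox7a2l, which acts in the assembly of supercomplexes, and Cox4nb, which is not a gene of the respiratory chain despite its symbol. Ndufa4 was counted with complex IV, where its product is now placed.

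Total RNA was prepared from whole brains of 12 newborn female mice, 6 wildtype (KIS +/+) and 6 KIS-ko (KIS -/-), and each brain was hybridized to 1 Affymetrix Mouse Exon 1.0 ST array. Each litter, numbered 1 to 6, gave 1 wildtype and 1 KIS-ko female. KIS is a protein kinase encoded by Uhmk1 that is found in many tissues and most of all in the nervous system, and the comparison asks which transcripts differ in the brain when it is missing. The knockout is constitutive, was bred onto C57BL6/N by repeated backcrossing, and removes the kinase from all cells. In whole brain RNA, fewer cells of a type and less RNA per cell cannot be told apart.

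The respiratory chain sits in the inner membrane of mitochondria. Complex I takes electrons from NADH and complex II from succinate, ubiquinone carries them to complex III, cytochrome c carries them on to complex IV, and complex IV passes them to oxygen. The proton gradient built on the way drives ATP synthase. Most of the subunits are encoded in the nucleus, and in many tissues their transcripts vary together, since their promoters share binding sites for a small number of transcription factors. The brain depends heavily on this pathway, which takes over from glycolysis as neurons mature.

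A gene value is the mean over the kept probesets of a gene of log2(signal + 16), where the signal is the deposited intensity. The gene signal given in the text is this mean turned back to the linear scale. Probes differ in how brightly they bind, so that signals were compared only between brains and never between genes. Each difference is KIS-ko minus wildtype on the log2 scale, with its standard error (SE), from limma with the litter as a block, and p-values were adjusted over all 17281 gene values. The targeted gene Uhmk1 served as the check of the labels: its gene value was 10.97 ± 0.057 in the wildtype and 8.85 ± 0.15 in the KIS-ko group (mean ± SD, n = 6 each), a difference of -2.11 (SE 0.068, limma adjusted p = 2.91e-07). The median signal of the arrays lay between 473 and 526 in wildtype and between 460 and 517 in KIS-ko brains. All 79 members kept at least 1 probeset after the filter on spread, which removed 20 of their 582 probesets. The median signal of 59 members lay above 713, a level that 95% of the control probesets placed in introns did not exceed, so that most of these transcripts were measured well over background.

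Of the 79 members, 72 lay lower in the KIS-ko brains (91.1%), beside 69.8% of all genes. The median difference of the members was -0.054, beside -0.036 for all genes. With 1 litter left out the members' median ran from -0.080 (without litter 3) to -0.034 (without litter 6). The single differences ran from -0.22 (Uqcrb) to 0.12 (Ndufb3). These shifts were small, since 66 of the 79 lay within 0.1 of 0. None of the members passed the adjusted threshold of 0.05 in limma, where 0.00579% of all genes did, which is Uhmk1 alone. The lowest adjusted p among the members was 0.684. An unadjusted p under 0.05 was reached by 2 members (2.53%), Uqcrb and Uqcrh, both lower in KIS-ko brains, beside 6.17% of all genes, so that the members were called no more often than genes at large. In the weighted fold change of the study's methods, 4 members differed by at least 6%, of which 3 were lower, beside 26.4% of all genes, where 1530 of the 4560 past this limit were lower. The wildtype and KIS-ko brains overlapped in gene signal for all 79 members, while 0.208% of all genes had groups that did not overlap. The SE of a member lay between 0.046 and 0.11, with a median of 0.058, about the size of the typical difference.

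The direction of the shift depended on the scale of the arrays: with each array centred on its own median, the median of the members was 0.0023, with 39 of 79 lower (49.4%), and that of all genes 0.020, with 37.7% lower. After a further quantile normalization the median of the members was -0.023, with 53 lower (67.1%), and that of all genes 0.0026, with 48.2% lower. The median of the members lay below that of all genes in both forms. By complex, the medians with centred arrays were 0.0052 in complex I, -0.025 in complex III, 0.0048 in complex IV and 0.0057 in ATP synthase, so that complex III alone of these 4 stayed below 0. The single member with an unadjusted p under 0.05 on that scale was Atp5g2, which was higher in KIS-ko brains (0.099, SE 0.043, limma adjusted p = 0.731).

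**Figure D1:**
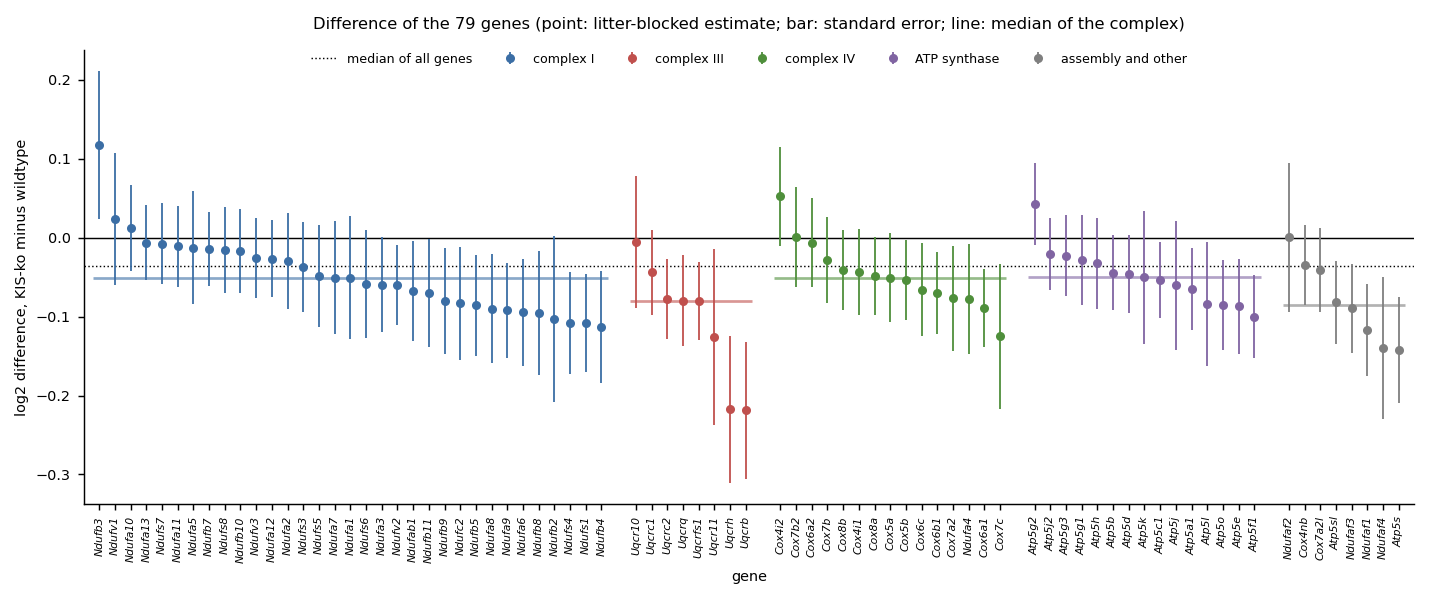
Log2 difference (KIS-ko minus wildtype, y axis) of each of the 79 genes (x axis), grouped by complex, with points for the litter-blocked estimates, bars for their standard errors, coloured lines for the median of each complex and a dotted line for the median of all genes. Most points lie slightly below 0, 72 of 79, and Uqcrb and Uqcrh lie lowest, near -0.22, while with centred arrays 39 of 79 are below 0.

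The shift was not the same from litter to litter. The median difference of the members was -0.077, -0.14, 0.027, 0.11, -0.085 and -0.19 in litters 1 to 6. That of all genes was -0.046, -0.086, 0.0023, 0.071, -0.052 and -0.11. In each litter, therefore, the members were shifted the same way as the other genes of that pair and further from 0. The number of members lower in the KIS-ko littermate was 61, 70, 29, 11, 62 and 70 of 79 in litters 1 to 6. No member was lower in all 6 litters, 20 were lower in 5, 30 in 4, 25 in 3 and 4 in 2. Litter 4 went the other way as a whole. In that litter the KIS-ko brain gave the highest of the KIS-ko signals for 40 members, and the wildtype brain gave the lowest of the wildtype signals for 34. The array median was 517 in the KIS-ko and 483 in the wildtype brain of litter 4, the only litter where it was higher in the KIS-ko brain. In litter 6, where the members were lowest, it was 467 and 526. The part of the array medians in the differences was measured only by the centring given above.

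**Figure D2:**
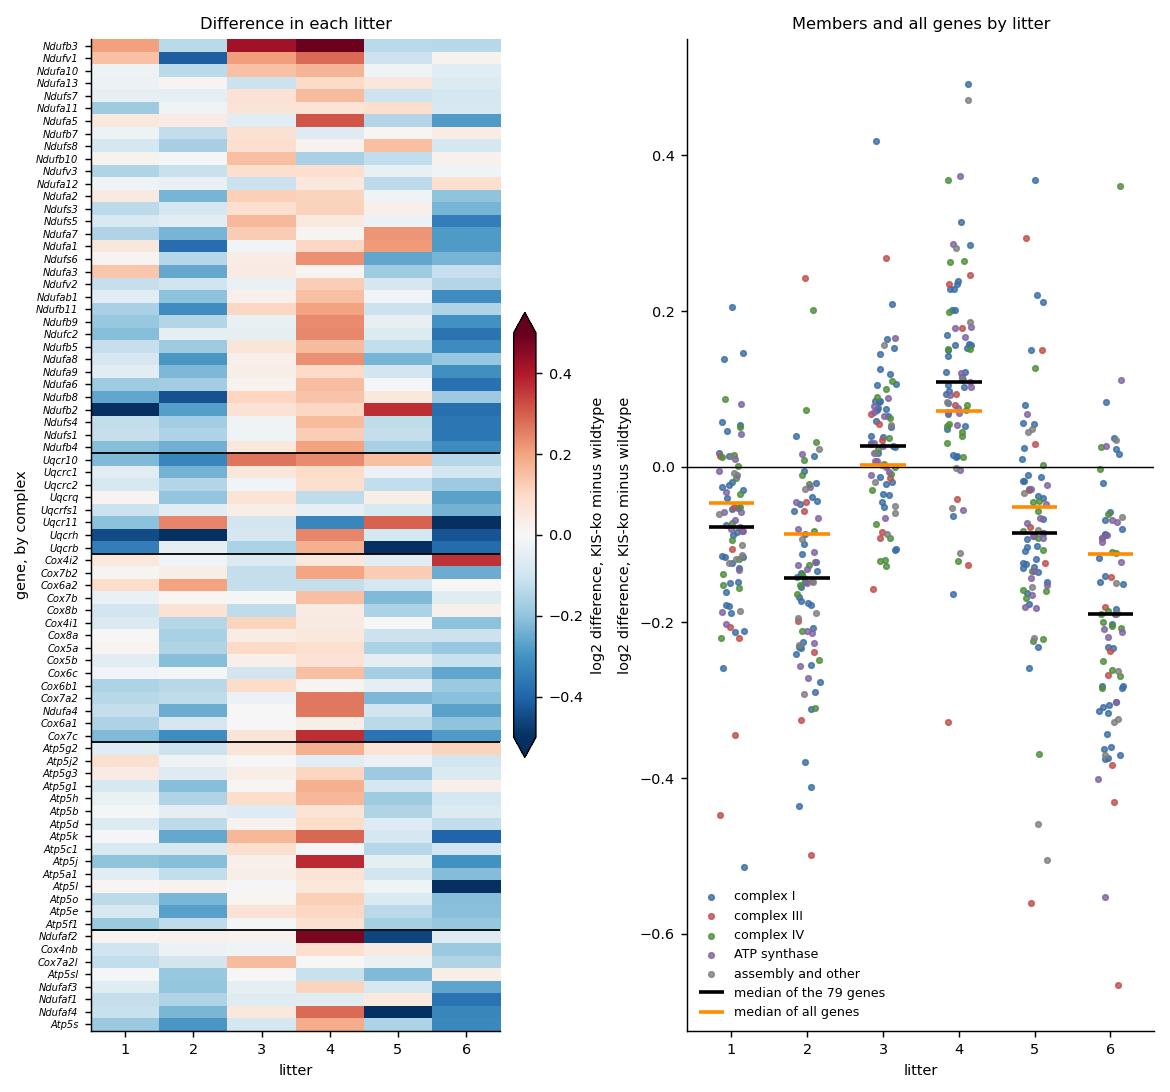
Left, log2 difference (KIS-ko minus wildtype, colour) of each gene (rows, by complex) in each litter (columns). Right, the same values as points (y axis) by litter (x axis), coloured by complex, with the median of the 79 genes in black and that of all genes in orange: litters 1, 2, 5 and 6 lie below 0 and litters 3 and 4 above it.

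Leaving out litter 4 raised the number of members with an unadjusted p under 0.05 to 20 of 79 (25.3%), all lower in KIS-ko brains, beside 22.6% of all genes, and the lowest adjusted p was then 0.125. Without litter 1 or litter 6 the number was 0, and without litter 2 it was 1. Of the 6 litters, litter 4 moved this number most, among the members and among all genes alike.

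The promoters of the members were searched for the motifs through which the respiratory chain is known to be controlled together. RefSeq (GRCm38.p6) gave 73 promoters for 67 of the 79 genes, each 300 bases long, from 250 bases before to 50 after the start. Atp5a1, Cox4i1, Cox4i2, Cox4nb, Cox6a2, Cox6c, Ndufa2, Ndufb9, Ndufs1, Uqcrb, Uqcrc2 and Uqcrq were not analysed here. The motif of NRF1, GCGCATGC on either strand, was found in 10 of the 73 promoters (13.7%), beside 2.71% of all 32841 promoters. The motif of YY1, AAGATGGC, was found in 11 (15.1%), beside 2.75%. The ETS motif bound by GABPA, CCGGAAGT, was found in 5 (6.85%), beside 3.89%, and that of the oestrogen-related receptors, TCAAGGTCA, in 1 (1.37%), beside 0.423%. The motifs of NRF1 and YY1 thus stood in a larger share of the members than of all promoters, and that of the oestrogen-related receptors in too few to compare. A stretch of 60 bases upstream of the start is shown for 1 gene of each motif. It is given in the reading direction of the gene, with the motif in capitals. Uqcrh (chr4:116075071-116075130, minus strand) is shown for ETS, since its difference is among the lowest of the members. Atp5g2 (chr15:102671056-102671115, minus strand) is shown for NRF1, since its difference is the highest of the ATP synthase genes. Atp5sl (chr7:25619414-25619473, plus strand) is shown for YY1, and Atp5g3 (chr2:73911344-73911403, minus strand) for the oestrogen-related receptors.
Uqcrh: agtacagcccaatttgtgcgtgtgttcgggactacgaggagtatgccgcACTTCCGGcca
Atp5g2: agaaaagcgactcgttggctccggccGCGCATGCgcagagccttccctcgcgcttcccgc
Atp5sl: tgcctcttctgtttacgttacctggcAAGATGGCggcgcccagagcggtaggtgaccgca
Atp5g3: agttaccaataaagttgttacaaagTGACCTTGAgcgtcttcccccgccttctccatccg
In Uqcrh and Atp5g3 the motif is read on the other strand. The stretch of Atp5g2 holds the NRF1 motif in both directions, overlapping, because the motif is nearly its own reverse complement. Members with the NRF1 motif had a median difference of -0.087 (9 of 10 lower) and the 57 without it -0.051 (52 lower). For YY1 the medians were -0.071 (10 of 10 genes lower) and -0.051 (51 of 57 lower), and for ETS -0.048 (5 of 5 lower) and -0.054 (56 of 62 lower). The differences between these subsets were not tested, and the letters alone do not show a bound site.

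Complex I had a median difference of -0.051, with 30 of 33 genes lower in KIS-ko brains, beside 69.8% of all genes. None had an unadjusted p under 0.05. The 6 core subunits, which carry the flavin and the iron-sulphur clusters, had a median of -0.026 (5 lower), and the 27 accessory subunits, which surround and stabilise the core, one of -0.059 (25 lower). The extremes of complex I were both accessory subunits of the membrane arm. Ndufb4 had gene signals of 1803, 2091 and 2360 (lowest, median and highest) in wildtype and of 1674, 1932 and 2076 in KIS-ko brains, a difference of -0.11 (SE 0.070, limma adjusted p = 0.684). The groups overlapped, and the KIS-ko brain was lower in 4 of 6 litters. Ndufb3 had gene signals of 535, 702 and 771 in wildtype and of 602, 728 and 857 in KIS-ko brains, a difference of 0.12 (SE 0.094, limma adjusted p = 0.699). The KIS-ko brain was higher by 0.21, 0.42 and 0.49 in litters 1, 3 and 4, while the other 3 litters were lower by 0.13 to 0.14. Ndufb3 was represented by 3 probesets, of which 1 had a mean signal over the intron control limit. Among the core subunits, Ndufs1, the largest iron-sulphur protein of the complex, had a difference of -0.11 (SE 0.062) over 19 probesets, of which 3 had an unadjusted p under 0.05, all lower. Ndufv1, which binds NADH, had a difference of 0.024 (SE 0.084), one of the 3 members of complex I above 0 together with Ndufb3 and Ndufa10.

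Complex III held both members with an unadjusted p under 0.05, which 6.17% of all genes reached. Its 8 genes were all lower in KIS-ko brains, beside 69.8% of all genes, with a median of -0.080. By litter this median ran from 0.087 in litter 4 to -0.25 in litter 6. Uqcrb, named for its binding of ubiquinone, had gene signals of 3355, 3422, 3651, 2886, 3853 and 3523 in the wildtype brains of litters 1 to 6 and of 2640, 3315, 3274, 3269, 2606 and 2698 in the KIS-ko brains. The groups overlapped, because the wildtype brain of litter 4 and the KIS-ko brains of litters 2, 3 and 4 crossed, and the KIS-ko brain was lower in 5 of 6 litters. The difference was -0.22 (SE 0.087, limma adjusted p = 0.684), and the single litters ran from 0.18 in litter 4 to -0.56 in litter 5. Uqcrh, the hinge protein that couples cytochrome c1 to cytochrome c, had gene signals of 997, 1011, 826, 755, 751 and 897 in the wildtype and of 727, 711, 778, 899, 705 and 661 in the KIS-ko brains. Here again 5 of 6 litters were lower, the KIS-ko brains of litters 3 and 4 lay among the wildtype brains, and the groups overlapped. The difference was -0.22 (SE 0.093, limma adjusted p = 0.684). With centred arrays, both Uqcrb and Uqcrh gave -0.16 (limma adjusted p = 0.731 for each), no longer with an unadjusted p under 0.05. Both stayed below 0 in the alternatives that gave them a value, from -0.30 to -0.11 for Uqcrb and from -0.31 to -0.062 for Uqcrh. With probesets that match 1 place only, neither had a value.

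The other genes of complex III lay closer to 0. Uqcr11, a small subunit of the membrane part, had a difference of -0.13 with the widest error of the members (SE 0.11), and its litters ran from 0.29 in litter 5 to -0.67 in litter 6. The Rieske protein gene Uqcrfs1 had -0.081 (SE 0.049), Uqcrq -0.080 (SE 0.058), and the core protein genes Uqcrc2 -0.078 (SE 0.050) and Uqcrc1 -0.044 (SE 0.054). Uqcr10 had -0.0056 (SE 0.084), with gene signals of 1071, 1307 and 1627 in wildtype and of 1182, 1343 and 1455 in KIS-ko brains. It was lower in 3 of 6 litters, and its groups overlapped throughout.

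**Figure D3:**
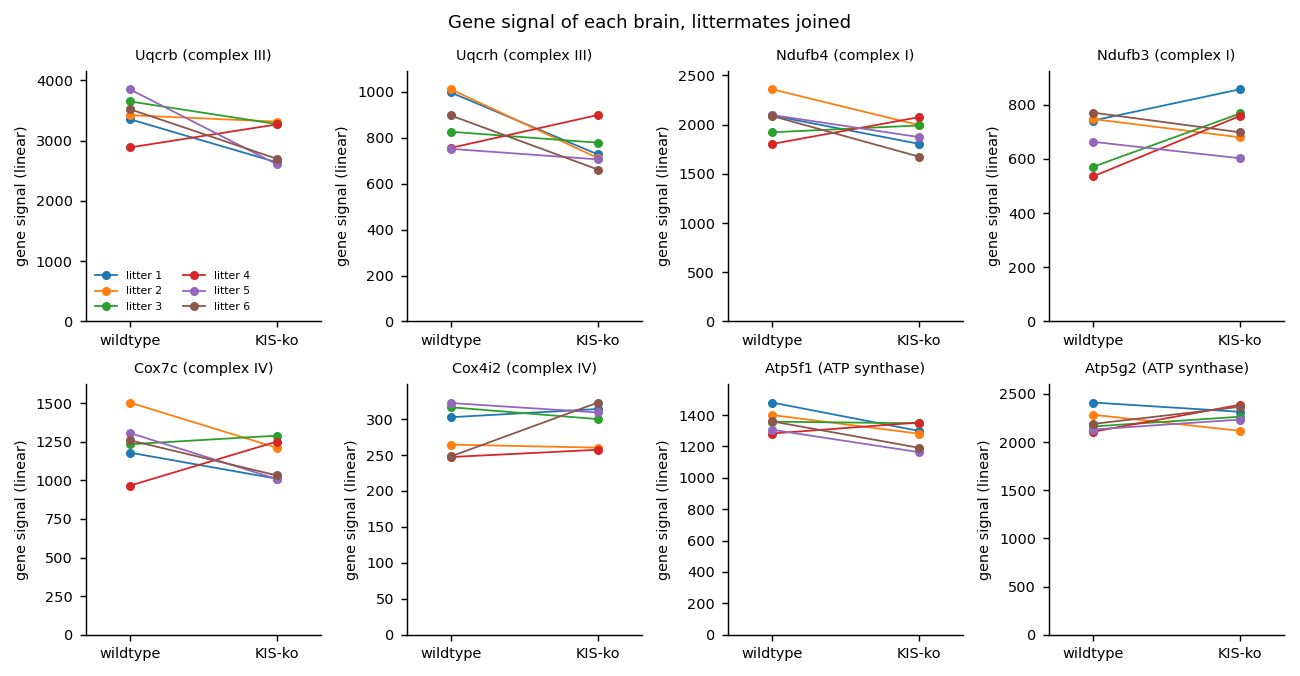
Gene signal (linear scale, y axis) of the wildtype and KIS-ko brain of each litter, littermates joined by a line, for 8 genes chosen by their p-value or as the highest and lowest of their complex. The lines of Uqcrb and Uqcrh run down in 5 of 6 litters and up in litter 4, and no gene separates the groups.

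Complex IV had a median difference of -0.051, with 13 of 15 genes lower, beside 69.8% of all genes, and none at an unadjusted p under 0.05. The lowest was Cox7c, a small subunit found in every tissue, with gene signals of 965, 1247 and 1504 in wildtype and of 1009, 1121 and 1290 in KIS-ko brains, a difference of -0.13 (SE 0.092, limma adjusted p = 0.690). The groups overlapped, and the single litters ran from -0.37 in litter 5 to 0.37 in litter 4. Several subunits of this complex exist in an isoform found in most tissues and another that is restricted to heart and muscle, lung or testis. The general isoforms lay a little below 0 and had most of their probesets over the intron control limit, except Ndufa4 with 3 of 6. Cox4i1 had gene signals of 1961, 2158 and 2307 in wildtype and of 1916, 2115 and 2194 in KIS-ko brains (difference -0.044, SE 0.054). Cox6a1 had 4525, 4610 and 4867 in wildtype and 4123, 4378 and 4655 in KIS-ko brains (difference -0.089, SE 0.050). Cox8a had 6871, 6998 and 7486 in wildtype and 6484, 6897 and 7153 in KIS-ko brains (difference -0.048, SE 0.049). In each of these the groups overlapped. Cox7a2 had 1146, 1496 and 1575 in wildtype and 1275, 1374 and 1461 in KIS-ko brains (difference -0.077, SE 0.067), where the wildtype brain of litter 4 lay far below the others. Cox6b1 had 2346, 2466 and 2711 in wildtype and 2199, 2418 and 2499 in KIS-ko brains (difference -0.070, SE 0.052). Ndufa4 had 675, 781 and 858 in wildtype and 658, 730 and 814 in KIS-ko brains (difference -0.077, SE 0.070), and the groups of both overlapped.

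The restricted isoforms, Cox4i2 of the lung, Cox6a2 and Cox8b of heart and muscle and Cox7b2 of the testis, had no probeset over the intron control limit. Their median signals were 367, 401, 260 and 40.8, beside a median of 114 for the intron controls, so that Cox7b2 alone lay below the latter. Their differences were 0.052 (SE 0.062), -0.0064 (SE 0.056), -0.041 (SE 0.051) and 0.00070 (SE 0.063), with a median of -0.0029 and 2 of 4 lower. By litter their median was 0.033, 0.053, -0.12, 0.047, -0.070 and 0.011 in litters 1 to 6, on the side of the members as a whole in litters 4 and 5 and on the other side in the rest, and the difference from the other members was not tested. Cox6a2 had gene signals of 291, 346 and 374 in wildtype and of 310, 338 and 356 in KIS-ko brains. Cox8b had 195, 216 and 251 in wildtype and 201, 209 and 229 in KIS-ko brains, and the groups of both overlapped. Those of Cox7b2 overlapped too, from 27.9 to 43.8 in wildtype and from 32.2 to 40.6 in KIS-ko brains. The highest of the complex was Cox4i2, with gene signals of 247, 284 and 322 in wildtype and of 257, 305 and 323 in KIS-ko brains, and 1 litter, litter 6 with 0.36, set its place.

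ATP synthase had a median difference of -0.050, with 14 of 15 genes lower, beside 69.8% of all genes, and none at an unadjusted p under 0.05. The 5 genes of the catalytic F1 head, Atp5a1, Atp5b, Atp5c1, Atp5d and Atp5e, were all lower, between -0.087 and -0.044. The 10 genes of the membrane part and the stalk had a median of -0.041. Atp5f1, subunit b of the peripheral stalk, was the lowest, with gene signals of 1282, 1359 and 1480 in wildtype and of 1163, 1290 and 1353 in KIS-ko brains, a difference of -0.10 (SE 0.052, limma adjusted p = 0.684). It was lower in 5 of 6 litters, and the groups overlapped. The 3 genes Atp5g1, Atp5g2 and Atp5g3 encode the same mature subunit c, which forms the turning ring. Atp5g1 had gene signals of 6121, 6362 and 6734 in wildtype and of 5805, 6259 and 6931 in KIS-ko brains (difference -0.028, SE 0.057). Atp5g3 had 2754, 2928 and 3049 in wildtype and 2572, 2890 and 3026 in KIS-ko brains (difference -0.023, SE 0.052). Atp5g2 had 2107, 2175 and 2410 in wildtype and 2116, 2288 and 2387 in KIS-ko brains (difference 0.043, SE 0.052), and was the only gene of ATP synthase above 0. The 3 genes of subunit c overlapped between the groups and lay within 1 SE of 0.

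Among the assembly factors and the other genes, 7 of 8 were lower, beside 69.8% of all genes, with a median of -0.086. Atp5s, the coupling factor, had gene signals of 290, 380 and 413 in wildtype and of 259, 334 and 389 in KIS-ko brains, a difference of -0.14 (SE 0.067, limma adjusted p = 0.684). It was lower in 5 of 6 litters, with overlapping groups, and 1 of its 8 probesets was over the intron control limit. The complex I assembly factors gave -0.12 for Ndufaf1 (SE 0.058), 0.00050 for Ndufaf2 (SE 0.094), -0.089 for Ndufaf3 (SE 0.056) and -0.14 for Ndufaf4 (SE 0.090). Ndufaf1, Ndufaf2 and Ndufaf4 had no probeset over the intron control limit. Ndufaf2, the highest of these genes, had gene signals of 243, 317 and 340 in wildtype and of 213, 332 and 343 in KIS-ko brains, with overlapping groups. Atp5sl gave -0.082 (SE 0.052) and Cox4nb -0.035 (SE 0.051). Cox7a2l had gene signals of 578, 658 and 679 in wildtype and of 598, 618 and 678 in KIS-ko brains (difference -0.041, SE 0.053), again with overlapping groups.

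Many respiratory chain genes have processed pseudogenes of nearly the same sequence, and the table marks each probeset by whether its probes match 1 place (type 1), several similar places (type 2) or a mixture (type 3). Of the 562 kept probesets of the members, 60.3% were of type 1, 14.6% of type 2 and 25.1% of type 3, beside 84.9%, 5.30% and 9.78% of all probesets. The members were thus marked as matching several places far more often than the array as a whole. The median difference was -0.050 for type 1, -0.055 for type 2 and -0.045 for type 3, and 80.8%, 79.3% and 76.6% of the probesets were lower. For all probesets, of which 66.2% were lower, the medians of the same types were -0.041, -0.044 and -0.023, with 67.0%, 68.2% and 58.4% lower. In the 46 genes with both kinds, the type 1 probesets had a median of -0.049 (39 lower) and the others one of -0.053 (37 lower), and the type 1 mean lay below the other in 27. The 17 genes with type 1 probesets alone had a median of -0.046 (14 lower). The 16 genes with no type 1 probeset, Uqcrb, Uqcrh and Uqcr11 among them, had a median of -0.061 (15 lower). Single genes did part by type: Ndufs6 gave 0.12 on 1 probeset of type 1 and -0.089 on 6 others, Atp5j2 0.14 on 1 and -0.059 on 4, and Ndufb11 -0.26 on 1 and -0.040 on 6.

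The table lists 9 members at 2 places: Atp5g1, Atp5g2, Atp5h, Cox6c, Cox7a2l, Cox7c, Ndufa13, Ndufab1 and Ndufb4. The genome build is not named in the table, and positions are given as it lists them. Against the RefSeq gene list (GRCm38.p6, used for names and chromosomes only) 76 of 79 members had a place on the chromosome of their gene, and 5 of these also had one on another chromosome. Cox7c, Ndufa12 and Ndufs5 had none on it. Cox7c is listed on chromosomes 11 and 14 while RefSeq places it on 13, and its probesets are all of type 3, so that its value cannot be tied to the place of the gene. For Ndufb4, the probesets on chromosome 16, where RefSeq places the gene, gave -0.17 and those on chromosome 19 gave -0.068. For Atp5h, those on its own chromosome 11 gave -0.0040 and those on chromosome 15 gave -0.075. For Atp5g2, both places were above 0, with 0.034 on chromosome 15 and 0.056 on chromosome 17.

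The probesets of Uqcrb and Uqcrh did not differ alike along the gene. Uqcrb was read by 4 probesets on chromosome 13 between 67001599 and 67003726, on the minus strand. Counted from the 5′ end, they gave -0.10 (SE 0.075), -0.13 (SE 0.079), -0.38 (SE 0.15) and -0.27 (SE 0.15). Uqcrh was read by 6 probesets on chromosome 4 between 115739578 and 115747574, also on the minus strand. From the 5′ end they gave -0.062 (SE 0.074), 0.029 (SE 0.062), -0.021 (SE 0.079), -0.48 (SE 0.21), -0.19 (SE 0.13) and -0.58 (SE 0.21). The difference of Uqcrh was thus carried by the 3 probesets nearest its 3′ end, of which 2 were dim, with mean signals of 174 and 189. With dim probesets left out, Uqcrh gave -0.062 (limma adjusted p = 0.777). With a stricter limit on the spread of a probeset, a relative standard deviation of 0.2, Uqcrb gave -0.11 (limma adjusted p = 0.618). Of the 562 probesets of the members, 16 had an unadjusted p under 0.05 (2.85%), all of them lower in KIS-ko brains, beside 6.63% of all probesets. None passed the adjusted threshold in limma, beside 0.00487% of all probesets.

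This led to a look at the probeset nearest the 3′ end in every member, chosen after these values were seen and given without a test. A last probeset was defined in genes with at least 3 probesets at a place, which gave 80 places of 75 members. The last probeset had a median difference of -0.12, and the mean of the others at the same place one of -0.049. The last lay below the others at 54 of 80 places (67.5%), with a median gap of -0.060. Over all genes the gap was -0.0099, and the last lay below the others at 53.6% of 15928 places. The first probeset lay below the others at 32.5% of the members' places and at 36.0% of all places. The widest gaps were those of Uqcrh (-0.43), Ndufb4 (-0.34), Uqcrfs1 (-0.30), Ndufv1 (-0.28) and Ndufa8 (-0.27). By complex, the gap was -0.067 in complex I, -0.064 in complex III, -0.069 in complex IV, -0.038 in ATP synthase and -0.014 in the assembly factors and other genes.

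The last probesets were also dimmer. Their median signal was 512 in the members, beside 2285 for the mean of the others, and 52 of the 80 were at or below the intron control limit. Over all genes these medians were 298 and 639, and 11362 of 15928 last probesets were at or below the limit. Dim last probesets were thus common on the array and not particular to the members. At the 28 places where the last probeset was over that limit, the gap was -0.025 in the members and -0.0027 in all genes. By litter, the median gap in the members was -0.011, -0.071, -0.015, 0.075, -0.082 and -0.12, beside 0.0087, -0.012, 0.0067, 0.017, -0.037 and -0.049 in all genes. The members' gap was above 0 in litter 4 alone, though not in complex IV (-0.052) or the assembly factors and other genes (-0.11) of that litter, while their gene values were above 0 in litters 3 and 4. The part of probe brightness and of RNA quality in this gap was not tested. Without the last probeset of each gene, 66 of 75 members were lower (88.0%), beside 71.2% of all genes, with a median of -0.050, and 1 member, Uqcrb, kept an unadjusted p under 0.05 (-0.20, SE 0.071, limma adjusted p = 0.651), beside 7.18% of all genes. Uqcrh then gave -0.15 (SE 0.074), Ndufb4 -0.054 and Cox7c -0.10.

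**Figure D4:**
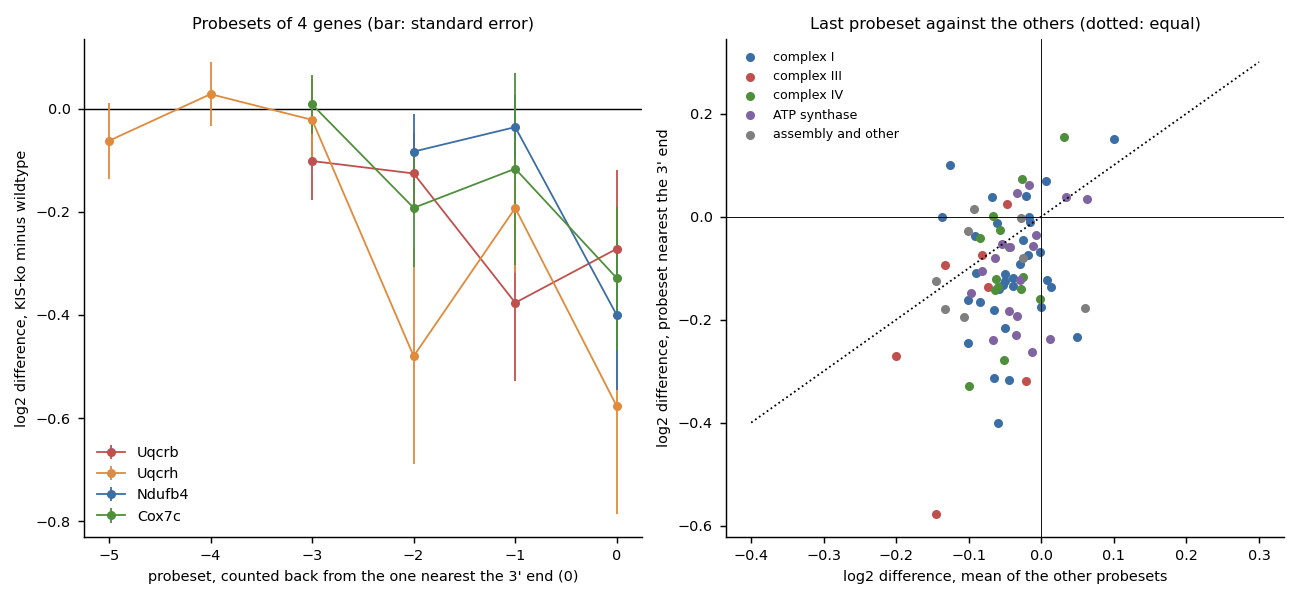
Left, log2 difference (KIS-ko minus wildtype, y axis) with its standard error for the probesets of Uqcrb, Uqcrh, Ndufb4 and Cox7c at 1 place each, in order along the gene (x axis) with the probeset nearest the 3′ end at 0. Right, the difference of the last probeset (y axis) against the mean of the others (x axis) at 80 places, coloured by complex, where 54 points lie below the dotted line of equality.

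The other genes of the pathway, from lists that are not part of the prefixes, lay below 0 except for Sdhc and Fh1, both in the stretch of chromosome 1 that was left out, and none passed the adjusted threshold. The 3 genes of complex II, Sdha, Sdhb and Sdhd, had a median of -0.053 and were all lower. Sdhc, an anchor subunit, was higher in all 6 litters, with 0.29 (SE 0.068, limma adjusted p = 0.536) and an unadjusted p under 0.05. Cycs, cytochrome c itself, had a difference of -0.18 (SE 0.077, limma adjusted p = 0.684), and Cyc1, the cytochrome c1 of complex III whose symbol lies outside the prefixes, one of -0.12 (SE 0.060). Both were lower in 5 of 6 litters, and Cycs had an unadjusted p under 0.05. The assembly factors of complexes III and IV were lower in 12 of 12, with a median of -0.069, and Taco1, a translational activator of mitochondrial Cox1, was the one gene among them with an unadjusted p under 0.05 (-0.12, SE 0.052, limma adjusted p = 0.684). The assembly factors and the inhibitor of ATP synthase were lower in 5 of 5 (median -0.10), the factors of mitochondrial biogenesis, with Nrf1, Gabpa, Tfam and Ppargc1a among them, in 13 of 13 (median -0.078), and the enzymes of the citric acid cycle in 12 of 12 (median -0.075). Fh1, the fumarase gene, was not counted there and gave 0.014 (SE 0.064). None of these last lists held a gene with an unadjusted p under 0.05. As for the members, these counts are those of arrays on their deposited scale, where 69.8% of all genes were lower.

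Markers of the cell types that make up the sample are given for the same arrays. The 6 neuronal genes were all over background, with 5 lower and a median difference of -0.027, and their summed signal ran from 46722 to 50412 in wildtype and from 45717 to 49098 in KIS-ko brains. The 5 genes of astrocytes and radial glia were all over background and all lower, with a median of -0.086, and a summed signal from 20138 to 22915 in wildtype and from 18704 to 21423 in KIS-ko brains. Of 5 erythroid genes 2 were over background, the globins, and 1 was lower, with a summed signal from 15785 to 19376 in wildtype and from 16736 to 20423 in KIS-ko brains. Of 4 measured genes of the choroid plexus 1 was over background, Ttr, and 3 were lower, with a summed signal from 9705 to 11413 in wildtype and from 9876 to 11084 in KIS-ko brains. Of 7 measured genes of striated muscle 1 was over background, and 4 were lower, with a summed signal from 4617 to 5644 in wildtype and from 4589 to 5119 in KIS-ko brains. The summed signals overlapped between wildtype and KIS-ko brains for each list, and the part of cell type makeup in the differences of the members was not tested.

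**Figure D5:**
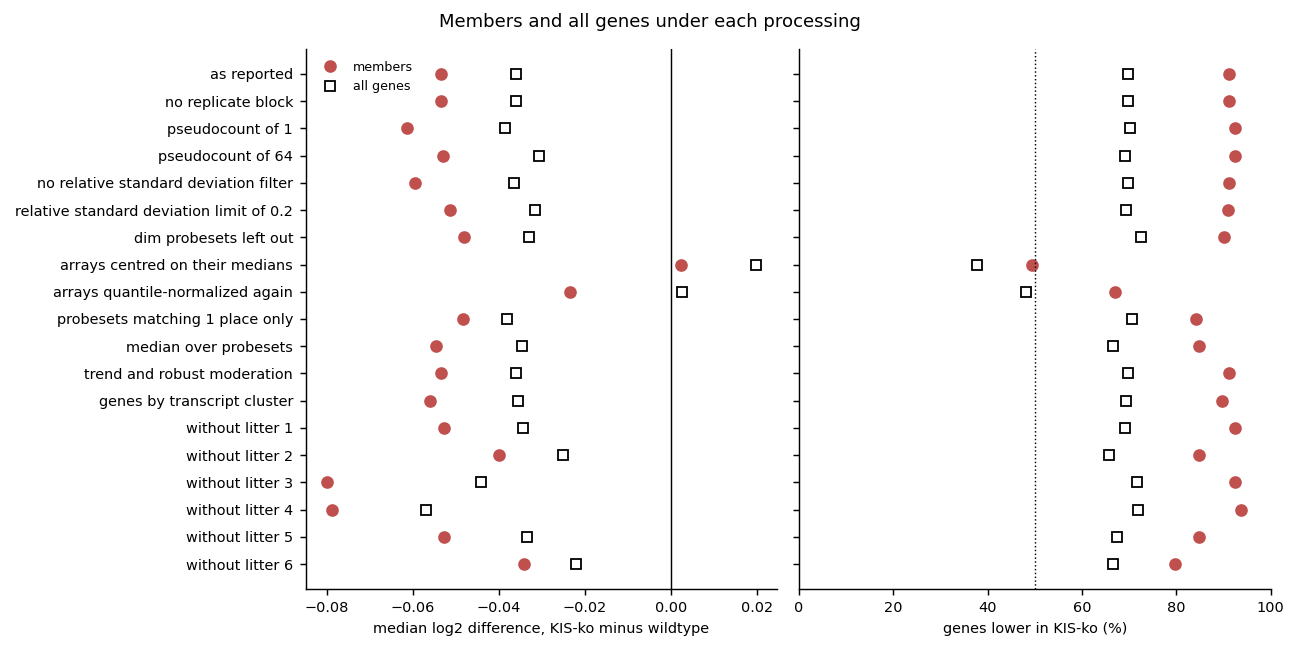
Median log2 difference (KIS-ko minus wildtype, left x axis) and share of genes lower in KIS-ko (right x axis, percent) of the members (red circles) and of all genes (open squares) as reported and under 18 other ways of processing (y axis). The median of the members lies below that of all genes and their share of lower genes above it in each, and the median of both passes 0 only when the arrays are centred on their medians, or, for all genes alone, when they are quantile-normalized again.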

How the data were processed

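RNA of 12 newborn brains was measured on exon arrays. Per the labels and methods, the authors used the Affymetrix Expression Console with exon-level quantile normalization and PLIER, and the deposited intensity of a probeset is the linear PLIER signal. From it, main probesets whose relative standard deviation passed 0.4 in one genotype or both were left out, log2(signal + 16) was averaged by symbol, and limma 3.58.1 in R 4.3.3 was fitted to 17281 gene values with the litter as a block, Benjamini-Hochberg adjustment and a threshold of 0.05. Single probesets were fitted in the same way. The study's fold change of a gene averages the 6 ratios of each probeset and then these averages across probesets, where a probeset counts less the larger its relative spread (weight 1 over spread). Motifs and counts were computed in Python 3.11.15 with pandas 2.3.3, and plots drawn with matplotlib 3.10.9. The fit was tested on simulated data.

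The members and the lists were chosen with earlier results of these data known. Gene signals on every brain, or their lowest, median and highest, are given for members with an unadjusted p under 0.05, for the highest and lowest of each complex and for genes with tissue isoforms. For Cox7b2, which this rule did not list, the range is given. Genes named from the other lists have an unadjusted p under 0.05 or state what a list holds. Ndufs1, Ndufv1, Uqcr11, Cyc1 and the genes named for their probesets were singled out after their values were seen.

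Littermates are paired by the labels, so the block is part of the fit. The correlation of their deviations from the genotype means was 0.272, -0.059, 0.136, -0.106, 0.473 and -0.114 in litters 1 to 6. The number of arrays and the signal over background limit the precision. Other normalizations, pseudocounts, filters and summaries, and each litter left out, were tried as alternatives.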

Additional observations from a re-analysis of the deposited data

Results flagged for a closer look

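Among 46 groups of 6 brains, the wildtype and KIS-ko groups of 22 members whose signals are given and of the median of all members, 3 held a brain that lay far from the other 5. Chance alone gives about 1 such group in 20. The wildtype brain of litter 4 had a Cox7a2 gene signal of 1146, while the others lay between 1491 and 1575, and the gap took up 0.827 of the range of log2 values. The KIS-ko brain of litter 5 had an Ndufaf2 gene signal of 213, while the others lay between 298 and 343, with a share of 0.700. The same brain had an Atp5g3 gene signal of 2572, while the others lay between 2863 and 3026, with a share of 0.661.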

How the results depend on the processing

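With centred arrays the median difference turned above 0 for the members (0.0023), complex I (0.0052), complex IV (0.0048) and ATP synthase (0.0057), and was -0.025 in complex III. After a further quantile normalization it was -0.023 in the members and -0.010, -0.046, -0.024 and -0.020 in complexes I, III, IV and ATP synthase. With 1 litter left out it ran from -0.080 (without litter 3) to -0.034 (without litter 6) in the members, from -0.078 (without litter 4) to -0.024 (without litter 2) in complex I, from -0.11 (without litter 3) to -0.046 (without litter 6) in complex III, from -0.077 (without litter 4) to -0.036 (without litter 6) in complex IV and from -0.078 (without litter 3) to -0.030 (without litter 2) in ATP synthase. Uhmk1 kept its call in each alternative in which it was read, with a difference from -2.46 to -1.93. It was not read in the fit without the last probeset of each gene. None of the members had an adjusted p under 0.05 in any alternative. The number lower in KIS-ko was 72 of 79 as reported and 39 with centred arrays, and ran from 63 to 74 with 1 litter left out. The number with an unadjusted p under 0.05 was 2 as reported, 0 with a relative standard deviation limit of 0.2, and 1 with dim probesets left out, with centred arrays, with arrays quantile-normalized again or without the last probeset of each gene. That member was higher in KIS-ko brains with centred arrays (Atp5g2) and lower in the other 3 (Uqcrb). The number was 3 with trend and robust moderation, which added Cox6a1, and by transcript cluster, which added Ndufb4 on chromosome 16. With probesets that match 1 place the 2 members were Atp5s and Ndufb11, and with the median over probesets Ndufs1 and Uqcrb, all lower. The number ran from 0 to 20 with 1 litter left out. The number that differed by at least 6% in the weighted fold change was 4 as reported (3 lower). It was 8 with centred arrays (1 lower, beside 33.1% of all genes past this limit). After a further quantile normalization it was 5 (1 lower, beside 29.6%). Among the 63 members with probesets that match 1 place it was 10 (7 lower, beside 27.2%). With 1 litter left out the number ran from 3 (without litter 1 or 6) to 23 (without litter 4, 22 lower, beside 44.1%). It was 13 without litter 3 and 8 without litter 5. The cause of these moves was not tested.

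Without the replicate block, the pairing by litter, 2 members again had an unadjusted p under 0.05, with a lowest adjusted p of 0.747 among the members, and the median was -0.054 with 72 lower, so that the block changed no call. Genes by transcript cluster and the fit without the last probeset were chosen after seeing the data. With 6 pairs and a median SE of 0.058, differences of the size seen in most members cannot be told from 0.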

Other observations

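Ribosomal protein genes, as further groups of small and abundant transcripts, were read from the same fit. Of the 73 genes of mitochondrial ribosomal proteins, which build the machinery that translates the subunits encoded in the mitochondrial genome, 64 were lower in KIS-ko brains (87.7%), with a median of -0.069, and 2 had an unadjusted p under 0.05, 1 lower and 1 higher. Of the 81 genes of cytosolic ribosomal proteins, 70 were lower (86.4%), with a median of -0.043, and 3 had an unadjusted p under 0.05, all lower. Of all genes, 69.8% were lower and 6.17% had an unadjusted p under 0.05. The shares lay near that of the respiratory chain members (91.1%), and the adjusted threshold was passed by none of them. By litter, the medians of the cytosolic genes were -0.11, -0.11, 0.018, 0.13, -0.078 and -0.13, and those of the mitochondrial genes -0.10, -0.21, -0.0058, 0.13, -0.036 and -0.20.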
